A study of Mus musculus with 16 samples.

Results

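The transcripts described here are those that make hemoglobin: the alpha-globin genes Hba-a1 and Hba-a2, the adult beta-globin genes Hbb-bs and Hbb-bt, and Alas2, the erythroid form of the enzyme that starts heme synthesis. They were chosen by gene name, which gave 5 of the 40481 genes listed, and their level in each brain was taken as a measure of the blood left in the tissue. RNA sequencing was performed on brain tissue of 16 C57BL mice, described in the study as male C57BL/6J. All of them were bought at 18 months of age, acclimated for 2 weeks, weight matched, injected intraperitoneally once a day, put through behavioral testing after 2 weeks of injections with the injections continued, and fasted for 6 h before tissue collection. The 8 adropin mice received Adropin(34-76), the putative secreted peptide made of residues 34 to 76 of adropin, at 90 nmol/kg/d in sterile saline with bovine serum albumin, and the 8 saline mice received that diluent alone. The mice sequenced were a selection from larger behavioral groups, each library is 1 mouse, and the sources used here do not say whether these brains were perfused. Each mouse is called by the numbers of its label, such as mouse 2_4.

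Hemoglobin is a tetramer of alpha-type and beta-type chains, each holding a heme group that binds oxygen. Circulating red cells of the mouse have no nucleus, but young red cells (reticulocytes) still carry globin mRNA and Alas2 mRNA, and globin transcripts are therefore found in RNA from any tissue that contains blood. Alas2 protein joins glycine and succinyl-CoA in mitochondria, and its gene is used almost solely in the erythroid lineage, whereas most other cells use Alas1.

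On GRCm38, with GENCODE M21 annotation, Hba-a1 (ENSMUSG00000069919) is at chr11:32283511-32284465 and Hba-a2 (ENSMUSG00000069917) at chr11:32296489-32297298, both on the plus strand. Hbb-bs (ENSMUSG00000052305) is at chr7:103826534-103828096 and Hbb-bt (ENSMUSG00000073940) at chr7:103812524-103813996, both on the minus strand. Each globin gene has 3 exons. Alas2 (ENSMUSG00000025270) is at chrX:150547375-150570638 on the plus strand and has 11 exons. The genes of each globin pair are near copies, which bears on how their reads could be counted. The coding sequences of Hba-a1 and Hba-a2, 429 bases each with the stop codon, differ at 1 base, C381T, and those of Hbb-bs and Hbb-bt, 444 bases each, differ at 1 base, C417T, with positions counted from 1 at the first base of the start codon. The 30 coding bases around each difference are shown because they are where a read can tell the copies of a pair apart within the coding sequence, and the capital marks the base that differs (5′ to 3′, coding bases 366 to 395 for the alpha pair and 402 to 431 for the beta pair).
Hba-a1: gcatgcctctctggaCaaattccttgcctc
Hba-a2: gcatgcctctctggaTaaattccttgcctc
Hbb-bs: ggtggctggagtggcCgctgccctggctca
Hbb-bt: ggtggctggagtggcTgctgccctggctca

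Between an alpha and a beta gene, by contrast, Hba-a1 and Hbb-bs were identical at 60.5% of aligned coding positions. Reads were 150 bases long from both ends of a fragment, and only uniquely aligned reads were counted. All 150-base stretches were taken from the longest annotated transcript of each gene that has a coding sequence. Of these, 48.4% for Hba-a1, 65.7% for Hba-a2, 58.7% for Hbb-bs and 50.7% for Hbb-bt also occurred in the other gene of the pair. The shared stretches occurred in no further gene. Levels of the single globin genes are therefore uncertain, and reads from the shared stretches may be missing from both genes of a pair. Alas2 overlaps exons of Apex2 and the microRNA gene Mir3620 on the opposite strand, over 8.63% of such stretches, and the strand setting of the counting was not given in the sources used here. Reads of Alas2 and of these neighbors cannot be told apart in the overlap. The level of Apex2 ranged only from 3.99 to 5.55 TMM-normalized CPM (counts scaled to library size, corrected by the trimmed mean of M-values, TMM) over the 16 mice and its correlation with Alas2 was r = 0.03 after subtraction of group means.

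Total counts per mouse ranged from 35026503 to 70314050, with medians of 41190462 in the adropin and 41497898 in the saline group. The libraries carried the markers of brain, and the neuronal list had a summed level of 6880 to 8374 TMM-normalized CPM over both groups. None of 6 neuronal, 5 astrocyte and 5 oligodendrocyte markers was called at an unadjusted p below 0.05, and the latter lists summed to 2535 to 4391 and 2581 to 7654 TMM-normalized CPM. Of 14949 genes tested, 596 (3.99%) had an unadjusted p below 0.05 in edgeR's quasi-likelihood test, 63 (0.421%) also passed a fold change of 1.5, and 0 passed a Benjamini-Hochberg adjusted p of 0.05, where the smallest adjusted p was 0.387. DESeq2 gave 5 genes with an adjusted p below 0.05. None of the 5 hemoglobin genes was called by any of these rules, although all 5 passed the filter on low values.

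The first question was whether blood-derived transcripts differed between the groups. Hba-a1, which encodes an alpha chain, had its lowest, median and highest level at 37.4, 89.9 and 274 TMM-normalized CPM in adropin mice and at 55.2, 144 and 200 in saline mice. The adropin group held both the lowest mouse, 4_1, and the highest mouse, 2_4, and the groups overlapped over most of their range. The means were 118 ± 74.8 and 128 ± 57.6 (SD, n = 8 per group), a log2 fold change of -0.12 ± 0.35 (SE; edgeR quasi-likelihood test, two-sided, Benjamini-Hochberg adjusted p = 0.948). Hba-a2, the second alpha gene, ran from 21.9 through a median of 50.2 to 153 TMM-normalized CPM in adropin and from 32.6 through 85.0 to 116 in saline mice. Again the extremes were mice 4_1 and 2_4. Its log2 fold change was -0.16 ± 0.36 (SE; edgeR, adjusted p = 0.926).

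Hbb-bs, the more highly counted beta gene, had a lowest, median and highest level of 30.9, 69.9 and 206 TMM-normalized CPM in adropin mice, against 41.9, 118 and 172 in saline mice. In the saline group 3 mice, 5_3, 7_1 and 8_1, lay between 41.9 and 52.8, mouse 2_3 lay at 96.5, and 4 mice, 6_2, 5_4, 6_1 and 8_3, lay between 139.6 and 172. In the adropin group 4 mice lay together between 61.9 and 69.95, with 4_1 below them and 3_3, 4_3 and 2_4 above them, so that neither group was uniformly high or low. The means were 97.7 ± 57.8 and 108 ± 55.0 (SD, n = 8 per group), a log2 fold change of -0.15 ± 0.37 (SE; edgeR, adjusted p = 0.935). Hbb-bt, the minor beta gene, showed the same extremes at a lower level, from 5.41 through 14.2 to 40.2 TMM-normalized CPM in adropin and from 7.78 through 21.5 to 31.2 in saline mice. Its log2 fold change was -0.15 ± 0.36 (SE; edgeR, adjusted p = 0.935).

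Alas2, the only one of the 5 that encodes an enzyme, had a lowest, median and highest level of 1.34, 4.04 and 12.6 TMM-normalized CPM in adropin mice and of 2.53, 4.46 and 7.38 in saline mice. Mouse 2_4, at 12.6, stood apart from the other adropin mice, the next of which was 3_3 at 5.32. The means were 4.92 ± 3.37 and 4.45 ± 1.74 (SD, n = 8 per group), a log2 fold change of 0.14 ± 0.33 (SE; edgeR, adjusted p = 0.929). Without mouse 2_4 the log2 fold change of Alas2 was -0.22, so its sign rested on that animal.

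**Figure D1:**
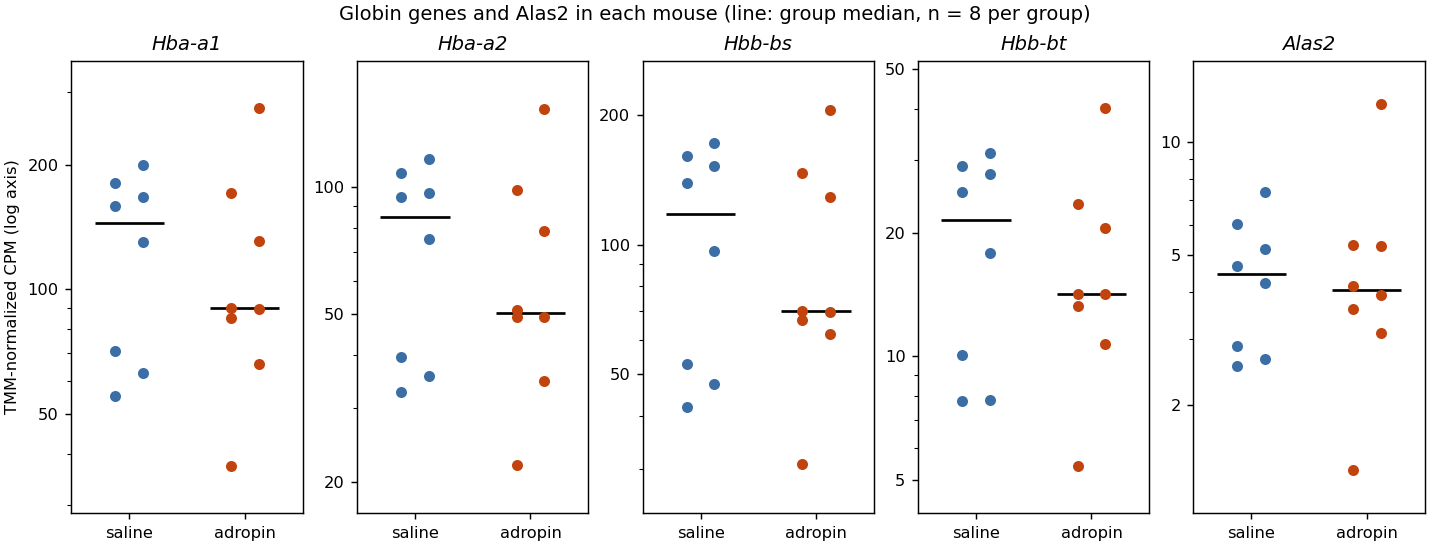
Level of each gene in each mouse, in TMM-normalized CPM on a log axis, with saline in blue and adropin in red and a line at the group median (n = 8 per group). In every panel the groups overlap, and the lowest and the highest point both belong to the adropin group.

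Differences of moderate size were not excluded by these data. The 95% confidence interval of the adropin to saline fold ran from 0.552 to 1.54 for Hba-a1, from 0.533 to 1.499 for Hba-a2, from 0.530 to 1.54 for Hbb-bs, from 0.533 to 1.53 for Hbb-bt and from 0.678 to 1.79 for Alas2. Because the RNA came from bulk tissue, the cells that held these transcripts were not identified. Fewer red cells and less globin mRNA per cell cannot be told apart. The 4 globin genes together took 0.00981% to 0.0663% of all counts in adropin mice, with a median of 0.0218%, and 0.0140% to 0.0515% in saline mice, with a median of 0.0379%. Globin reads were thus a minor fraction of every library.

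Per kilobase of exon, the mean level over the 16 mice was 152 ± 79.7 (SD) CPM for Hba-a1, 134 ± 71.3 for Hbb-bs, 106 ± 56.1 for Hba-a2, 26.6 ± 14.2 for Hbb-bt and 1.95 ± 1.08 for Alas2. The spread between mice was larger than the gap between the upper 3. On this scale Hba-a1 exceeded Hbb-bs in 15 of 16 mice, with a median ratio of 1.15, and Hbb-bs exceeded Hba-a2 in 16 of 16, with a median ratio of 1.24. The order of these 3 turned when levels were set per 1000 of the 150-base stretches that no other gene holds, a scale chosen after the data were seen: the means were then 433 for Hba-a1, 510 for Hba-a2 and 519 for Hbb-bs, Hba-a1 exceeded Hbb-bs in 0 of 16 mice, and Hbb-bs exceeded Hba-a2 in 8 of 16. The order of the upper 3 is therefore undecided, while Hbb-bt and Alas2 were lower than each of them on both scales, at 68.4 and 2.72 on the second. Per kilobase of exon Hba-a1 ranked 216 and Alas2 10840 among the 14949 genes tested.

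The ratios between the genes varied far less than their levels. The count of Hba-a1 over that of Hba-a2 lay between 1.55 and 1.92 in all 16 mice, with a median of 1.73, while the level of Hba-a1 itself spanned 7.34-fold. Hbb-bs over Hbb-bt lay between 4.69 and 6.29, with a median of 5.47, and the summed alpha pair over the summed beta pair between 1.39 and 1.83, with a median of 1.63. These are ratios of uniquely aligned reads, not of chains. Within groups the SD of the log2 ratio was 0.0819 for the alpha genes, 0.131 for the beta genes and 0.125 for alpha over beta, against 0.0380, 0.0650 and 0.0297 from counting error alone. None of the 3 differed between the groups in a two-sided exact permutation test of the mean log2 ratio (n = 8 per group, p = 0.388, 0.862 and 0.460).

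Alas2 followed the globins less tightly. Hbb-bs over Alas2 lay between 15.8 in saline mouse 5_3 and 33.3 in saline mouse 8_3, with a median of 20.9. The SD of this log2 ratio within groups was 0.334, against 0.119 from counting error. The mean log2 ratio differed by -0.16 between adropin and saline mice (n = 8 per group, p = 0.347 in an exact two-sided permutation test). Both extremes of the ratio belonged to saline mice.

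**Figure D2:**
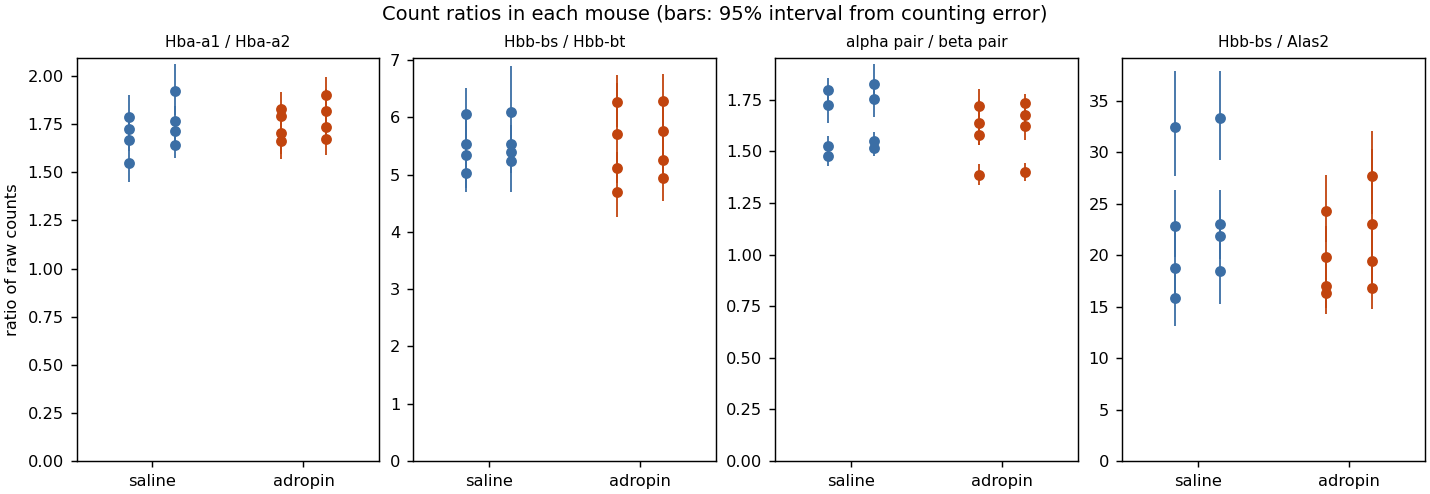
Ratio of raw counts in each mouse for the alpha pair, the beta pair, alpha over beta, and Hbb-bs over Alas2, with 95% intervals that cover counting error only. The first 3 ratios stay within narrow ranges in both groups, and Hbb-bs over Alas2 runs from 15.8 to 33.3.

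The next question was whether the 5 genes vary together between animals. For the 10 pairs, Pearson's r of log2 TMM-normalized CPM over the 16 mice ranged from 0.919 for Hbb-bs with Alas2 to 0.995 for Hba-a1 with Hba-a2, and Spearman's rho from 0.924 to 0.985. Each had a permutation p of 1e-05, the smallest that 100000 resamples can give, and an adjusted p of 2e-05 over the 20 relations computed. Without mice 2_4 and 4_1 the coefficients were 0.919 to 0.992. They were 0.951 to 0.997 within the adropin group and 0.929 to 0.996 within the saline group. On log2 scales and after subtraction of group means, the slope on Hbb-bs was 0.93 ± 0.04 (SE) for Hba-a1, 0.94 ± 0.04 for Hba-a2, 0.98 ± 0.04 for Hbb-bt and 0.80 ± 0.09 for Alas2. The part of the sequence shared within a pair in these coefficients was not tested. Hba-a1 and Hbb-bs, which share no 50-base stretch, had r = 0.988.

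**Figure D3:**
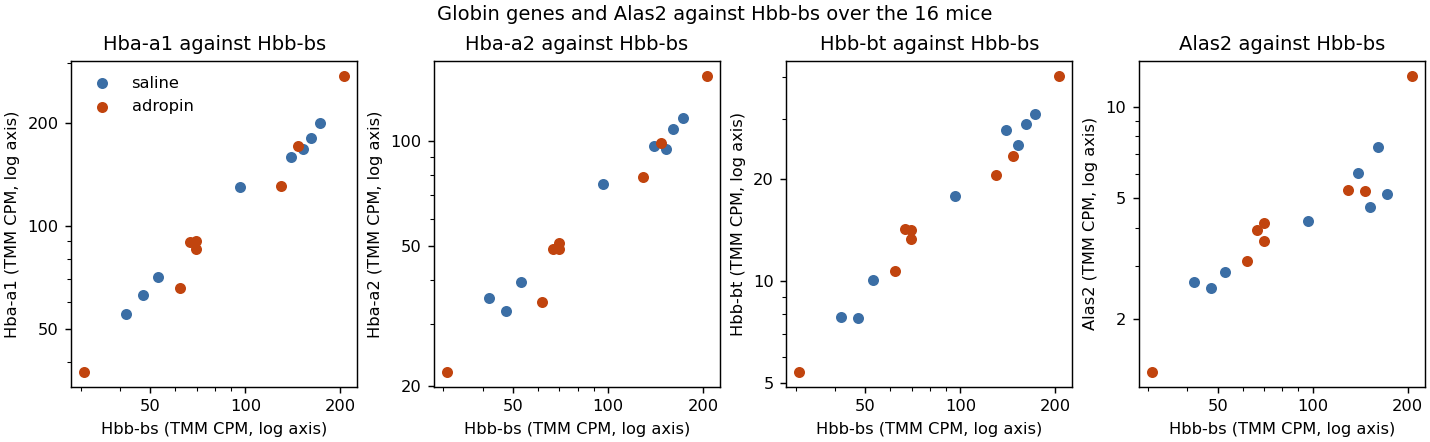
Hba-a1, Hba-a2, Hbb-bt and Alas2 against Hbb-bs, each in TMM-normalized CPM on log axes, 1 point per mouse. The points of both groups fall along one line in each panel, with mouse 4_1 at the lower end and mouse 2_4 at the upper end, and Alas2 scatters most.

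The spread between mice was large for genes at these levels. The within-group SD of log2 TMM-normalized CPM was 0.815 for Hba-a1, 0.825 for Hba-a2, 0.863 for Hbb-bs, 0.857 for Hbb-bt and 0.749 for Alas2, against a median of 0.196 over all 14949 genes tested. Hbb-bs ranked 62 and Alas2 126 from the top. Among the 3495 other genes whose mean level lay within 1 log2 unit of that of Hbb-bs, 1 had a larger SD. The highest mouse exceeded the lowest 6.67-fold for Hbb-bs and 9.44-fold for Alas2.

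**Figure D4:**
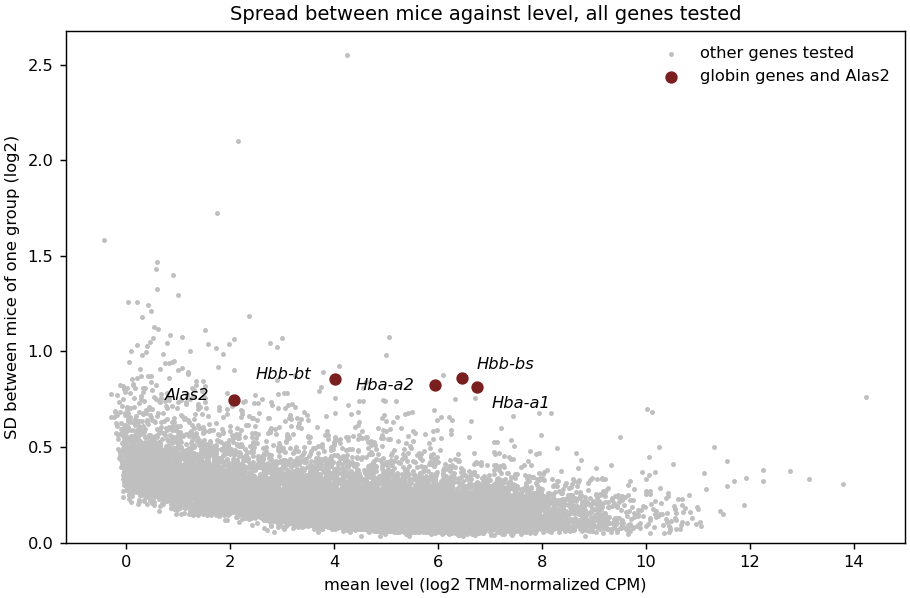
SD between mice of one group against mean level, both in log2 TMM-normalized CPM, for all 14949 genes tested. The 5 hemoglobin genes, in dark red, lie between 0.749 and 0.863, above nearly all genes of like level.

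Of the 14948 other genes tested, the 4 most like Hbb-bs by Pearson's r after subtraction of group means, over the 16 mice, were the other 4 hemoglobin genes: Hbb-bt (r = 0.989), Hba-a1 (0.988), Hba-a2 (0.986) and Alas2 (0.923). The 8 genes that came next were Isg20 (0.908), an interferon-induced RNA exonuclease, Creld2 (0.857), a chaperone-like protein of the endoplasmic reticulum, Gm11772 (0.834), Ccndbp1 (0.819), Gm6304 (0.807), Loxl3 (0.792), a lysyl oxidase-like enzyme, C330018D20Rik (0.788) and 9130401M01Rik (0.781). In all, 68 genes reached r = 0.7 and 19 reached -0.7. These coefficients are descriptions over the same 16 libraries, and the top of so long a ranking holds high values by selection. Of the 8, Isg20 also moved over the widest range, with a within-group SD of 0.454 and a slope of 0.48 ± 0.06 log2 units per log2 unit of Hbb-bs, whereas the slope of Creld2 was 0.15 ± 0.02.

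Among 13 tested genes on a list of red cell enzymes and late erythroid genes, 0 were called at an unadjusted p below 0.05 in either direction. Of all genes 3.99% were, so 0 calls among 13 say little. Their median log2 fold change was -0.0005 against -0.0019 over all genes. On this list 3 genes, Isg20 (r = 0.908), Tent5c (0.739), a poly(A) polymerase, and Ube2l6 (0.738), an ISG15-conjugating enzyme, had r with Hbb-bs of at least 0.7. Tent5c and Ube2l6 had slopes of 0.39 ± 0.10 and 0.23 ± 0.06. Among the 3 most abundant genes of the list were Prdx2, a peroxiredoxin abundant in red cells, and Car2, a carbonic anhydrase. Their mean levels in the saline group were 169 and 162 TMM-normalized CPM and their r with Hbb-bs was 0.61 and 0.02. The median r of the list was 0.43.

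The remaining enzymes and carriers of heme synthesis did not follow the globins as a group. On that list 12 of 12 genes were tested, 0 were higher and 1 was lower at an unadjusted p below 0.05 (backgrounds of 1.86% and 2.13% of all genes), and the median r with Hbb-bs was 0.07. The lower gene was Slc25a38, the mitochondrial glycine carrier, at 19.0 against 20.9 TMM-normalized CPM (log2 fold change -0.14 ± 0.06, SE; edgeR, unadjusted p = 0.0403). Alas1, the form of the enzyme used outside the erythroid lineage, had means of 55.9 and 54.4 TMM-normalized CPM and r = -0.44 with Hbb-bs after subtraction of group means. Urod and Fech, which act late in the pathway, had r = 0.08 and -0.09. Of the other globins, 2 of 11 listed in the table passed the filter, the neuronal globin Ngb and the broadly expressed Cygb, with log2 fold changes of -0.28 ± 0.25 and -0.10 ± 0.05 (SE) and r of 0.10 and 0.06 with Hbb-bs. Ngb and Cygb are made by cells of the brain itself. The embryonic globins were near 0, with 30 counts of Hbb-y and 1 count each of Hba-x and Hbb-bh1 over all 16 mice.

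Genes of the red cell membrane and of erythroid transcription fell into those the brain also expresses and those that were barely detected. In the membrane list 8 of 17 genes were tested and 0 were called at an unadjusted p below 0.05, where 3.99% of all genes were. The 3 most abundant, Dmtn, Sptb and Add2, which encode cytoskeletal proteins also made by neurons, had mean levels of 419, 232 and 92.4 TMM-normalized CPM in the saline group and r of -0.41, -0.60 and -0.54 with Hbb-bs. Of the list of erythroid transcription factors and the erythropoietin receptor, 5 of 9 were tested and 0 were called, against the same 3.99% of all genes. The 3 most abundant were Bcl11a (r = -0.44), Zfpm1 (-0.47) and Lmo2 (0.45). The genes below the filter were too sparse for the test, and those named here were chosen after their values were seen. Slc4a1, the anion exchanger of the red cell, had 3 counts in mouse 4_1 and 68 in mouse 2_4, which were its lowest and highest counts and the animals with the lowest and highest globin levels. The erythroid factor Klf1, with 2 to 51 counts, had 9 and 10 counts in the same mice, Gata1 had 0 counts in 8 mice, and Rhag had 0 in every mouse. Trim10 ran the other way, with 33 counts in mouse 4_1 and 12 in mouse 2_4. Over all 16 mice the r with Hbb-bs after subtraction of group means was 0.71 for Slc4a1, 0.52 for Klf1, -0.22 for Gata1 and -0.26 for Trim10. Among the genes of the globin and erythroid lists below the filter, Slc4a1 had the highest r. The lowest was -0.77 for Trim58, with 33 counts over all mice. These values rest on sparse counts.

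**Figure D5:**
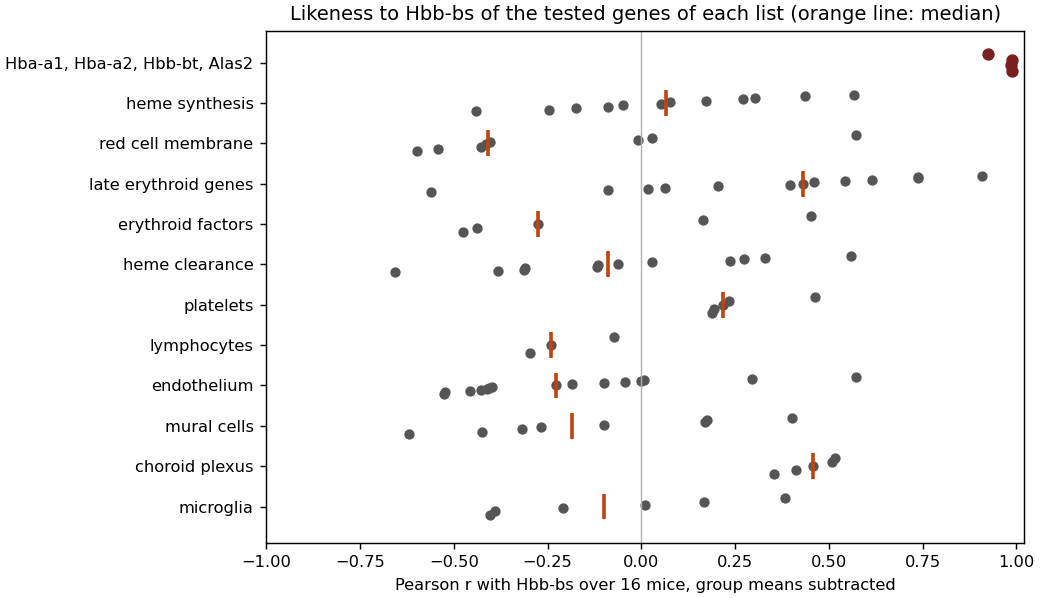
Pearson's r with Hbb-bs over 16 mice after subtraction of group means, for the tested genes of each list, with an orange line at each list's median. Hba-a1, Hba-a2, Hbb-bt and Alas2 lie at 0.923 to 0.989, and the late erythroid genes and the choroid plexus genes have medians of 0.43 and 0.46.

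Other blood cells were looked for by their markers. For neutrophils 2 of 12 markers passed the filter and 0 were called, for lymphocytes 3 of 12 with 0 called, for monocytes 3 of 6 with 0 called, and for platelets 5 of 10 with 0 called. With 3.99% of all genes called at an unadjusted p below 0.05, 0 calls in lists this short say little about these cells. The summed level of the platelet list was 16.3 to 20.2 TMM-normalized CPM in adropin and 15.8 to 25.1 in saline mice, and that of the lymphocyte list 22.6 to 57.4 and 13.4 to 57.5. The monocyte list summed to 3.54 to 7.66 and 3.74 to 6.60. The neutrophil list summed to 8.47 to 40.2 in adropin and 7.12 to 11.5 in saline mice. The upper end came from adropin mouse 1_3, where the neutrophil gene S100a9 reached 4.94 TMM-normalized CPM against 0.915 in the next mouse. That mouse ranked only 12 of 16 for Hbb-bs, at 61.9, so its neutrophil transcripts were not accompanied by high globin levels.

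The vessel wall was followed by endothelial and mural cell markers. All 15 endothelial markers were tested, and 1 was higher and 0 lower at an unadjusted p below 0.05, where 1.86% and 2.13% of all genes were: Vwf, von Willebrand factor, at 35.7 against 24.2 TMM-normalized CPM (log2 fold change 0.56 ± 0.23, SE; edgeR, unadjusted p = 0.0279). Of 8 mural markers 0 were higher and 1 lower, against the same shares of all genes: Rgs5, a regulator of G protein signaling of pericytes (74.9 against 83.7 TMM-normalized CPM, edgeR unadjusted p = 0.0345). The call of Vwf was lost with the second label number as a replicate block, where 0 genes of the lists were higher. The median r of the endothelial list with Hbb-bs was -0.23. Across the 16 mice Hbb-bs had r = -0.53 and rho = -0.51 with Pecam1, the endothelial adhesion molecule (permutation p = 0.0334 and 0.0443, adjusted 0.0574 and 0.0777), r = 0.24 and rho = 0.14 with Cldn5, a tight junction protein (p = 0.365 and 0.597, adjusted 0.438 and 0.663), and r = 0.20 and rho = 0.05 with Acta2, the smooth muscle actin (p = 0.478 and 0.857, adjusted 0.503 and 0.902). Without mice 2_4 and 4_1 these r were -0.61, 0.38 and 0.22. For Cldn5 the sign differed between the groups, with r = -0.34 within the adropin and 0.69 within the saline group (exact permutation p = 0.414 and 0.0641), and the difference between the groups was not tested.

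Choroid plexus, the vascular tissue of the ventricles that makes cerebrospinal fluid, varied between the same brains. Of the 10 genes on its list 5 passed the filter, and all 5 were lower in adropin mice at an unadjusted p below 0.05. Of all genes, 2.13% were lower at that bound. Each of the 5 had an adjusted p of 0.874 in edgeR. In adropin mice Clic6 and Sostdc1 lay near the filter's bound of 1 CPM. The r of the 5 genes with Hbb-bs after subtraction of group means was 0.35 to 0.52. The mean levels in adropin and saline mice were 20.7 and 346 TMM-normalized CPM for Ttr, transthyretin, 3.58 and 7.76 for Kl, 1.35 and 3.09 for Prlr, the prolactin receptor, 1.004 and 3.67 for Clic6 and 1.06 and 2.60 for Sostdc1. Without saline mouse 8_3 the saline means were 52.6 for Ttr, 5.50 for Kl, 2.22 for Prlr, 1.60 for Clic6 and 1.33 for Sostdc1. The log2 fold changes were then -1.34, -0.61, -0.73, -0.67 and -0.33, against -4.07, -1.11, -1.21, -1.89 and -1.31 with that mouse, and of the 5 genes 2, Kl and Prlr, were still called in edgeR. With limma-voom 2 of the 5 were called, again Kl and Prlr, and 0 were when first label numbers formed a replicate block. That block compares only mice whose first number, 2, 5 or 7, occurred in both groups. With Hbb-bs as a covariate in edgeR 4 of the 5 were called, all but Ttr. Over all mice Ttr had r = 0.52 and rho = 0.51 with Hbb-bs (permutation p = 0.0344 and 0.0466, adjusted 0.0574 and 0.0777), and r = 0.53 without mice 2_4 and 4_1. Its highest level, 2398 TMM-normalized CPM, was in mouse 8_3, which also had the highest globin level of the saline group. The summed choroid plexus list ran from 12.2 to 77.7 in adropin and from 15.2 to 2491 in saline mice. The part of choroid plexus in the globin levels was not tested.

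Of 14 listed genes that handle free hemoglobin and heme, 12 were tested. Of these, 0 were called at an unadjusted p below 0.05, where 3.99% of all genes were, so 0 calls among 12 say little. Their median log2 fold change was 0.04. The most abundant were the ferritin chain Fth1, at 1738 and 1934 TMM-normalized CPM, and the receptor Lrp1, at 562 and 513, followed by the ferritin chain Ftl1, at 184 and 192 in adropin and saline mice. Their r with Hbb-bs after subtraction of group means was 0.27, -0.66 and 0.56, and the median r of the list was -0.09. Hmox1, heme oxygenase 1, had r = -0.39 and rho = -0.32 with Hbb-bs (permutation p = 0.139 and 0.221, adjusted 0.185 and 0.315). Alas1 had r = -0.45 and rho = -0.44 (p = 0.0814 and 0.0945, adjusted 0.125 and 0.145), and r = -0.70 without mice 2_4 and 4_1 (permutation p = 0.006).

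For depth and for 2 genes of brain cells, the relation with the globin level was within the error of 16 mice. The total count had r = -0.14 and rho = -0.03 with Hbb-bs (permutation p = 0.619 and 0.908, also after adjustment). Of 6 microglial markers 1 was higher and 0 were lower at an unadjusted p below 0.05 (1.86% and 2.13% of all genes): the receptor Cx3cr1, at 50.1 against 44.2 TMM-normalized CPM (log2 fold change 0.18 ± 0.07, SE; edgeR, unadjusted p = 0.0225). That call, too, was lost with the second label number as a replicate block. With Hbb-bs, Cx3cr1 had r = -0.23 and rho = -0.17 (p = 0.391 and 0.527, adjusted 0.438 and 0.620), and the immediate early gene Fos r = -0.23 and rho = -0.22 (p = 0.394 and 0.416, adjusted 0.438 and 0.519). Without mice 2_4 and 4_1 these 3 r were -0.22, -0.38 and -0.36. Of the 20 relations computed, the 10 among the hemoglobin genes had an adjusted p below 0.05 and the 10 of Hbb-bs with other measures did not. The adjustment pooled all 20, and the small p of the first 10 lowers the adjusted p of the others.

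Finally, the level of Hbb-bs was added to the model of all genes as a covariate, an alternative chosen after the data were seen. The number of genes past the fold change of 1.5 and an unadjusted p of 0.05 was 57, against 63 without it, and 55 genes were in both sets (96.5% of the first and 87.3% of the second). With the covariate the log2 fold changes of the other hemoglobin genes were -0.04 ± 0.07 (SE) for Hba-a1, -0.07 ± 0.07 for Hba-a2, 0.01 ± 0.07 for Hbb-bt and 0.16 ± 0.14 for Alas2. The standard errors without the covariate were 0.33 to 0.36.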

How the data were processed

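Brain poly(A) RNA of 16 mice (8 adropin, 8 saline) was sequenced in paired 150-base reads. The authors aligned reads to the Ensembl release 76 primary assembly (GRCm38) with STAR and counted uniquely aligned, unambiguous reads per gene with featureCounts. They deposited these raw counts and, in a second table, CPM. Here, 276 repeated rows were dropped from the count table. Groups came from the treatment labels. Genes were kept where 7 or more mice exceeded 1 CPM, ribosomal RNA genes were left out, and 14949 genes were fitted with edgeR 4.0.16 (TMM, quasi-likelihood F test, no covariate, two-sided, Benjamini-Hochberg adjustment over all genes). DESeq2 1.42.0 and limma 3.58.1 served as alternatives, the latter also on log2 of the deposited CPM. Correlations used log2 TMM-normalized CPM with a prior count of 2. Levels per kilobase used the union of exons in GENCODE M21, and levels per unshared stretch used the longest coding transcript of each gene. On simulated counts of 14949 genes the edgeR step called 96 of 100 genes changed 2-fold, 75 of 100 changed 1.5-fold and 12 of 14749 unchanged genes at an adjusted p of 0.05. The changed genes were drawn at random from all genes tested. The 5 hemoglobin genes vary far more between mice than most genes, so these rates do not apply to them. No library looked like a repeat of another of its group (ratio of chi-square to its degrees of freedom 8.52 to 190.0 over 56 pairs). Sequencing or dissection batches were not given in the sources used here, and p-values measure the spread between these mice. The genes and lists were chosen with earlier results of these data known. Named beyond the 5 genes are the partners of Hbb-bs, in each list the genes with an unadjusted p below 0.05, the 3 most abundant of the erythroid and heme lists, and the 8 genes most like Hbb-bs. Tent5c, Ube2l6 and the genes below the filter were named after their values were seen. The rule also covered the 3 most abundant genes of the lists of other cells, which are given as counts and summed levels only. S100a9, Ppbp, Cd79b and Hpx, also planned as partners, were below the filter. Results for a few genes of the lists, 1 partner of Hbb-bs among them, are not reported here.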

Additional observations from a re-analysis of the deposited data

Results flagged for a closer look

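In 36 groups of 8 mice (18 measures in each treatment group), the gap from the highest or lowest mouse to its neighbor was set against the range of the group, and 2 stood apart by Dixon's criterion; chance gives about 1 in 20 groups. Alas2 was 12.6 TMM-normalized CPM in adropin mouse 2_4, and the nearest adropin mouse was at 5.32. Ttr was 2398 TMM-normalized CPM in saline mouse 8_3, and the nearest saline mouse was at 311.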

How the results depend on the processing

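None of the 153 alternative values for the 5 genes had an unadjusted p below 0.05 (smallest 0.182, adjusted p 0.761 to 0.9997). Leaving out each mouse in turn gave log2 fold changes of -0.42 to 0.016 for Hba-a1, -0.45 to -0.03 for Hba-a2, -0.39 to -0.01 for Hbb-bs, -0.43 to -0.01 for Hbb-bt and -0.22 to 0.29 for Alas2. The sign turned without adropin mouse 4_1 (0.016) or saline mouse 8_3 (0.002) for Hba-a1 and without adropin mouse 2_4 for Alas2 (-0.22). Alas2 was -0.032 with limma-voom, -0.17 with quality weights and -0.019 with limma-trend on log2(CPM + 0.1). Hbb-bt was 0.012 with Hbb-bs as a covariate. The cause was not tested. Deviations from the group mean were correlated between mice of opposite groups. With the same first label number, r was -0.27 to 0.22 over 5 pairs. With the same second number it was -0.56 to 0.30 over 17 pairs. Pairs that shared neither number had r of -0.45 to 0.72 over 42 pairs. Pairs within a group were not compared, so this comparison cannot tell whether mice with a shared number are alike. With the first number as a replicate block, the log2 fold changes were 0.21 for Hba-a1, 0.19 for Hba-a2, 0.16 for Hbb-bs, 0.36 for Hbb-bt and 0.58 for Alas2, and with the second number that of Alas2 was -0.026; neither block gave a call among the 5 genes. Genes of the lists higher in adropin numbered 2, and 5 with no filter, 1 with limma-voom, 1 with the first and 0 with the second block. Genes lower numbered 7, and 10 with no filter, 4 with limma-voom, 3 with the first and 5 with the second block. Within groups, where 8 mice allow less, r of Hbb-bs was -0.55 (adropin) and -0.52 (saline) with Pecam1 and 0.58 and 0.55 with Ttr, no longer past 0.05 in exact permutation tests, and it turned to 0.094 with total count in saline and to -0.34 with Cldn5 in adropin mice (0.69 in saline mice). With Alas1, r was -0.70 without mice 2_4 and 4_1. With 53 to 503 counts per mouse, Alas2 has the largest counting error of the 5.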
